A study of Mus musculus with 3 samples.

Results

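The mRNAs of 8 genes of the cytosolic translation machinery, namely Eef1a1, Eef1b2, Eef1d, Eef1g, Eef2, Tpt1, Naca and Pabpc1, were followed through 3 libraries of RNA interactome analysis and sequencing (RIA-seq). They were chosen by symbol, as the elongation factor mRNAs and other well-known TOP mRNAs, and the rule itself uses no measured value. All 8 of 8 were listed in every library, out of 26887 genes listed in the series. RIA-seq fixes cells, lyses them, fishes out 1 chosen RNA with antisense oligonucleotides and streptavidin beads, and sequences all RNA that comes along. Every library was made from mouse E14 ES cells of strain 129/Ola, an undifferentiated embryonic stem cell line grown on gelatin without feeder cells, with serum and LIF, and fixed with 1% glutaraldehyde. By their labels the 3 conditions differed in the oligonucleotides alone. They were directed against Actb, the β-actin mRNA (Actb RIA-seq, the control of the study), against Malat1, a long nuclear noncoding RNA (Malat1 RIA-seq), or against Tfrc, the mRNA of the transferrin receptor (Tfrc RIA-seq). The control is thus a pulldown of another RNA, and a library without oligonucleotides or of unselected RNA was not analysed here. Each condition had 1 library, so no spread between replicates could be measured, no test between conditions was made, and every value below describes 3 libraries.

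Translation elongation is carried out by eEF1A, which brings aminoacyl-tRNA to the ribosome, by the eEF1B complex, which reloads eEF1A with GTP, and by eEF2, which moves the ribosome along the mRNA. The mRNAs of these factors, of the ribosomal proteins, and of Tpt1, Naca and Pabpc1 start at a cytosine followed by a run of pyrimidines, the 5′ terminal oligopyrimidine (TOP) motif. Through this motif their translation is regulated together by growth signals that pass through mTOR and the RNA-binding protein Larp1. In dividing cells such as ES cells, TOP mRNAs are among the most abundant messages of the cytoplasm.

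The start of each mRNA is shown here because the TOP motif is the feature for which these mRNAs are grouped. Each window holds 8 bases before an annotated transcript start and 22 bases from it, 5′ to 3′ on the transcribed strand, read from the mouse genome build NCBIM37 at starts of the GENCODE annotation of that build. Capitals mark 1 run in each window, a C followed by at least 4 bases that are each C or T. Only the transcribed strand was searched. The run shown is the longest that begins within 5 bases of any annotated start of the gene, and for Eef2, which has none, the longest in any window, where the end of the window cuts it. The starts shown for Eef1b2 and Tpt1 belong to annotated transcripts that are not classed as protein coding.
Eef1a1: ccgCCCTCTTCCCgagggtgggggagaacg
Eef1b2: ctctgggtCCTTTTTTTCCCTCagcgctgg
Eef1d: ggatccaCTCTTCgagctgaggaggggttc
Eef1g: cctcgCTTTTTCCaactcagcggggctgta
Eef2: ggccgggcgttgacgtcagcggtCTCTTCC
Tpt1: gcgtcggCCTTTTCCgcccgctcccccctc
Naca: gttCTCTTaaagaggaaacccggacgccgt
Pabpc1: cggtgCTTCCCCTTCTCCCCggcggttagt

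These windows lie at chr9:78329510-78329539 (minus strand) for Eef1a1, chr1:63223695-63223724 (plus) for Eef1b2, chr15:75739956-75739985 (minus) for Eef1d and chr19:9041523-9041552 (plus) for Eef1g. Those of the remaining genes are chr10:80639368-80639397 (plus) for Eef2, chr14:76245130-76245159 (plus) for Tpt1, chr10:127472394-127472423 (plus) for Naca and chr15:36538707-36538736 (minus) for Pabpc1. A run began within 5 bases before or after an annotated start in 7 of the 8 genes (87.5%). A run counted in this way may lie partly or wholly before the start. The Naca run, of 5 bases, ended before the start, so none of it lay in the annotated transcript. In Eef2 the run began at base 16 of the transcript. Such a run was found near a start of 6959 of 22380 protein-coding genes (31.1%) and of 44 of 80 ribosomal protein genes (55.0%). Genes with many annotated starts have more chances of a match. The 8 genes had a median of 6.5 starts against 2 for all protein-coding genes, and among protein-coding genes with at least 8 starts the share was 73.5%. An annotated start is not a measured cap site, and a match is a description of these letters only.

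The unit of all values is a read count per gene, given by its share of the library total in counts per 1000000 (CPM). The totals were 10405209 counts in the Actb library, 10078439 in the Malat1 library and 14553941 in the Tfrc library. A fold is the share in the first-named library over that in the other, with no pseudocount, and is followed in parentheses by its 95% counting interval. All intervals cover counting error only, since each condition had 1 library. They treat reads as independent, and where PCR copied 1 molecule into several reads they are too narrow even for that error. The composition of the libraries differed. Lars2, the gene of the mitochondrial leucyl-tRNA synthetase, alone took between 17.0% and 32.0% of a library. The 10 highest genes of each library together took 52.7% of the Actb library, 23.6% of the Malat1 library and 33.4% of the Tfrc library. The fold of the median gene, over genes that had 10 counts or more in every library, was not 1. It stood at 1.82 in Malat1 over Actb, 1.56 in Tfrc over Actb and 1.15 in Malat1 over Tfrc, shifts of 0.87, 0.65 and 0.20 on the log2 scale, and folds are given below both as shares and relative to this median gene. Of the targets, Actb had 759974 counts in its own library against 8964 and 13445 in the Malat1 and Tfrc libraries. Malat1 stood at 1834, 10657 and 7041 CPM in the Actb, Malat1 and Tfrc libraries, and Tfrc at 43.5, 101 and 117 CPM. Each target was thus highest in its own library. For Tfrc the Malat1 library was close behind. Malat1 was lower in the Tfrc library than in its own, but far above the control there. All 12 ES cell markers examined were listed in every library, at a summed 3366, 4258 and 4662 CPM in the same order. The summed 8 fibroblast (feeder) markers reached between 5.09 and 8.53 CPM, with Lum at 0 in every library, and the 8 markers of differentiated cells between 9.71 and 20.0 CPM, with Sox1 at 0 in every library.

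The 8 genes together took nearly the same share of each library. They held 69624 counts in the Actb library, 68425 in the Malat1 library and 94619 in the Tfrc library, which is 6691 CPM (95% Wilson interval 6642 to 6741), 6789 (6739 to 6840) and 6501 (6460 to 6543). The summed share was 1.01 times (1.00 to 1.03) that of the control in the Malat1 library and 0.972 times (0.962 to 0.981) in the Tfrc library, while relative to the median gene these ratios were 0.556 and 0.621. By share the sums thus differed from the control by a few percent, and against the median gene they were lower in both. The 10 genes with the highest mean share over the libraries, among them the targets Actb and Malat1, were also taken out of every library total. The summed share was then 1.39% in the Actb library, 0.884% in the Malat1 library and 0.964% in the Tfrc library, so the control was the highest of the 3. Libraries were made from bulk lysate, in which fewer cells holding an RNA and less of it per cell cannot be told apart, nor can recovery with the target be told apart from a background of abundant RNA.

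**Figure D1:**
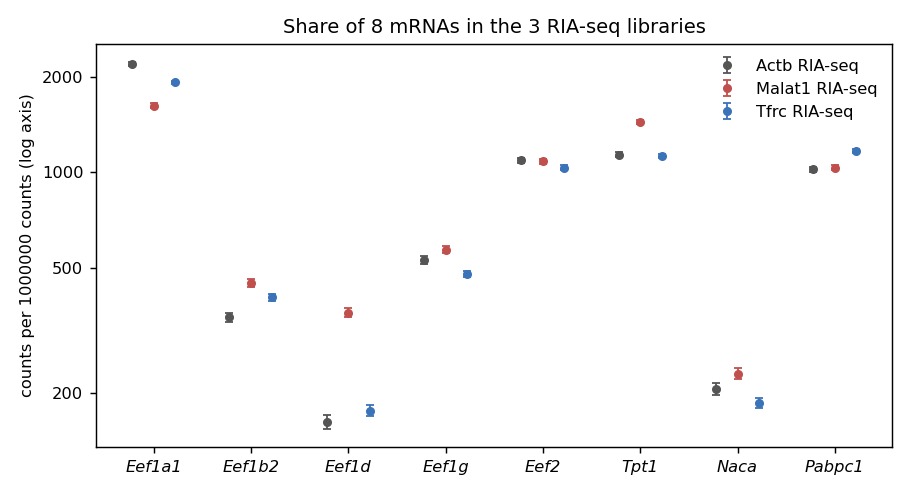
Share of each of the 8 mRNAs in each library, in CPM on a log axis, with 95% Wilson intervals for counting error (1 library per condition). Eef1a1 was the highest in every library, at 2197, 1625 and 1927 CPM in the Actb, Malat1 and Tfrc libraries, and Eef1d had the largest ratio between libraries, from 162 to 360 CPM.

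Eef1a1 encodes the α subunit of eEF1, the GTP-binding carrier of aminoacyl-tRNA (ENSMUSG00000037742, NCBIM37 chr9:78326256-78336958, minus strand, 5 merged exons). It had 22860 counts in the Actb library, 16380 in the Malat1 library and 28042 in the Tfrc library, or 2197, 1625 and 1927 CPM. Its share was thus lower in both other libraries than in the control, and lowest with the Malat1 oligonucleotides. The fold was 0.740 (0.725 to 0.755) in Malat1 over Actb, 0.877 (0.862 to 0.892) in Tfrc over Actb and 0.844 (0.827 to 0.860) in Malat1 over Tfrc. Against the median gene the folds were 0.406, 0.560 and 0.733, and 4.11% of all genes past the minimum had a lower fold in the first comparison and 6.90% in the second. Eef1a1 was the lowest of the 8 mRNAs in all 3 comparisons. It was the 18th gene by counts in the Actb library, the 28th in the Malat1 library and the 23rd in the Tfrc library.

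The guanine nucleotide exchange complex eEF1B has its subunits encoded by Eef1b2, Eef1d and Eef1g. Eef1b2, a subunit with exchange activity (ENSMUSG00000025967, chr1:63223399-63227060, plus strand, 5 merged exons), had 3624 counts in the Actb library, 4493 in the Malat1 library and 5852 in the Tfrc library, or 348, 446 and 402 CPM. Its share was higher in both other libraries than in the control, at folds of 1.28 (1.23 to 1.34) in Malat1 over Actb and 1.15 (1.11 to 1.20) in Tfrc over Actb, while relative to the median gene it was lower, at 0.702 and 0.738. In Malat1 over Tfrc the fold was 1.11 (1.07 to 1.15), or 0.964 relative to the median gene.

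Eef1d, the other subunit with exchange activity (ENSMUSG00000055762, chr15:75725226-75739986, minus strand, 11 merged exons and 18 annotated transcripts), had 1690 counts in the Actb library, 3626 in the Malat1 library and 2566 in the Tfrc library. These are 162, 360 and 176 CPM. The Malat1 library stood apart from the other libraries. The fold was 2.22 (2.09 to 2.35) in Malat1 over Actb and 2.04 (1.94 to 2.15) in Malat1 over Tfrc, against 1.09 (1.02 to 1.15) in Tfrc over Actb. Against the median gene these were 1.21, 1.77 and 0.694, so that the last turned in direction. In Malat1 over Actb 65.9% of genes had a lower fold than Eef1d, and in Malat1 over Tfrc 96.1% did. Set against Eef1a1 within the same library, Eef1d had 7.39 counts per 100 Eef1a1 counts in the Actb library, 22.1 in the Malat1 library and 9.15 in the Tfrc library, and the Malat1 value was 2.99 times the Actb value (2.82 to 3.18). A ratio of this kind does not depend on the library total. It rests on Eef1a1 as well, which had the lowest fold of the 8 mRNAs in Malat1 over Actb.

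Eef1g, the subunit that anchors the complex (ENSMUSG00000071644, chr19:9041531-9052969, plus strand, 11 merged exons), had 5490, 5732 and 6950 counts in the Actb, Malat1 and Tfrc libraries, or 528, 569 and 478 CPM. Its fold was 1.08 (1.04 to 1.12) in Malat1 over Actb, 0.905 (0.874 to 0.938) in Tfrc over Actb and 1.19 (1.15 to 1.23) in Malat1 over Tfrc. Divided by the fold of the median gene, the values were 0.591, 0.578 and 1.04, so that Eef1g was then lower in Malat1 over Actb. The mRNAs of the 3 eEF1B subunits thus had unlike folds in Malat1 over Actb, from 1.08 for Eef1g to 2.22 for Eef1d.

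Eef2 encodes the translocase eEF2 (ENSMUSG00000034994, chr10:80639376-80645252, plus strand, 14 merged exons). It had 11370 counts in the Actb library, 10915 in the Malat1 library and 15054 in the Tfrc library, or 1093, 1083 and 1034 CPM. The shares were nearly level, with folds of 0.991 (0.965 to 1.02) in Malat1 over Actb, 0.947 (0.924 to 0.970) in Tfrc over Actb and 1.05 (1.02 to 1.07) in Malat1 over Tfrc. The first interval includes 1, and 11.0% of genes had a lower fold there. Eef2 stood, relative to the median gene, at 0.544, 0.605 and 0.910.

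Tpt1 encodes the translationally controlled tumour protein, a small abundant protein whose mRNA gave the protein its name (ENSMUSG00000060126, chr14:76244900-76248332, plus strand, 4 merged exons). It had 11803 counts in the Actb library, 14528 in the Malat1 library and 16427 in the Tfrc library, or 1134, 1441 and 1129 CPM. The Malat1 library was the highest, and the interval of the fold between the other libraries included 1. The fold was 1.27 (1.24 to 1.30) in Malat1 over Actb, 1.28 (1.25 to 1.31) in Malat1 over Tfrc and 0.995 (0.972 to 1.02) in Tfrc over Actb. Set against the median gene it was at 0.697, 1.11 and 0.636, so the direction of Tpt1 in Malat1 over Actb turned with the scale.

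Naca encodes the α subunit of the nascent polypeptide-associated complex, which binds new chains at the ribosome exit (ENSMUSG00000061315, chr10:127472402-127485693, plus strand, 9 merged exons). It had 2152, 2328 and 2719 counts in the Actb, Malat1 and Tfrc libraries, or 207, 231 and 187 CPM. The fold was 1.12 (1.05 to 1.18) in Malat1 over Actb, 0.903 (0.854 to 0.956) in Tfrc over Actb and 1.24 (1.17 to 1.31) in Malat1 over Tfrc. By share Naca thus had the same order of libraries as Eef1g, with the Malat1 library the highest and the Tfrc library the lowest, while against the median gene the control was the highest, with folds of 0.612, 0.577 and 1.08.

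Pabpc1 encodes the cytoplasmic poly(A)-binding protein, which coats the tails of mRNAs (ENSMUSG00000022283, chr15:36525416-36538728, minus strand, 15 merged exons). It had 10635 counts in the Actb library, 10423 in the Malat1 library and 17009 in the Tfrc library, or 1022, 1034 and 1169 CPM. By share Pabpc1 was the only member of the 8 that was highest in the Tfrc library, and against the median gene it was highest in the control. The fold was 1.01 (0.985 to 1.04) in Malat1 over Actb, 1.14 (1.12 to 1.17) in Tfrc over Actb and 0.885 (0.864 to 0.907) in Malat1 over Tfrc. Against the median gene Pabpc1 was at 0.555, 0.731 and 0.769.

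**Figure D2:**
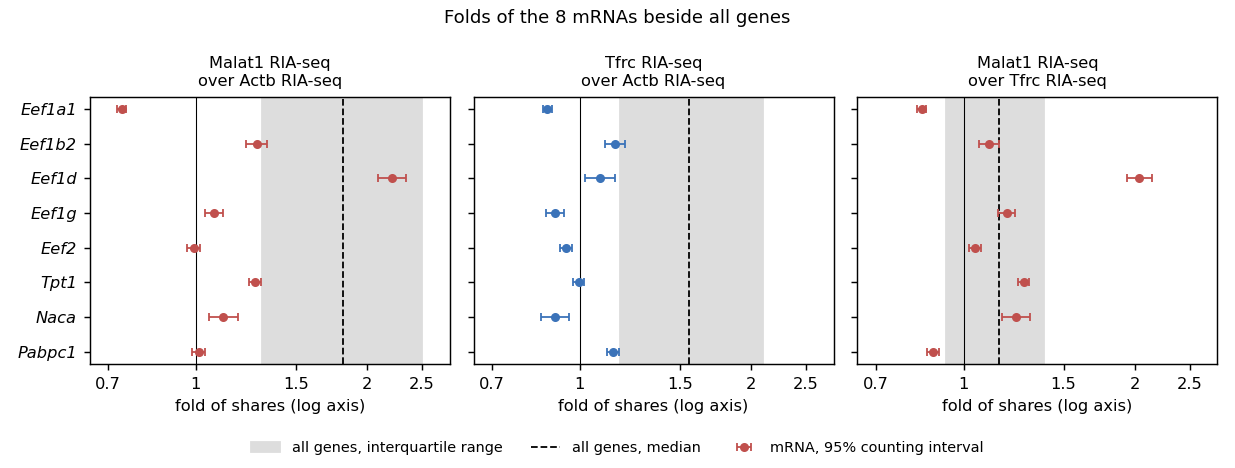
Fold of each of the 8 mRNAs in the 3 comparisons, as a ratio of shares on a log axis with 95% counting intervals, coloured by the first-named library, with 1 library per condition. The dashed line is the median and the grey band the interquartile range of all genes. Eef1d lies past 1.5 in Malat1 over Actb (2.22) and Malat1 over Tfrc (2.04), the other folds lie between 0.740 and 1.28, and relative to the median gene, at 1.82, 1.56 and 1.15, all but Eef1d were lower in Malat1 over Actb and all were lower in Tfrc over Actb.

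A fold of at least 1.5, or of at most 1 over 1.5, was used to call a difference of size. In Malat1 over Actb 1 of the 8 mRNAs, Eef1d, was called higher, where 65.6% of 14572 genes were (the minimum was 10 counts in each of the libraries compared), and 0 were called lower, where 2.81% of genes were. In Tfrc over Actb 0 were called in either direction, against 53.3% of 14691 genes higher and 1.82% lower. In Malat1 over Tfrc Eef1d was again the 1 mRNA called higher, against 17.1% of 16430 genes, and 0 were called lower, against 6.8%. The median fold of the 8 mRNAs was 1.10, 0.971 and 1.15 in the 3 comparisons, beside 1.82, 1.56 and 1.15 for all genes. The first pair of comparisons shares the control library, so a low position in both is not independent.

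The calls turned when folds were taken relative to the median gene. In Malat1 over Actb 5 of the 8 mRNAs were then called lower and 0 higher, where 20.6% and 19.5% of genes were. Likewise 5 were called lower and 0 higher in Tfrc over Actb, where 15.5% and 18.3% of genes were. In Malat1 over Tfrc 0 were called lower and 1, Eef1d, higher, where 11.9% and 8.73% of genes were. The median itself depends on the kind of count. With counts listed under Ensembl identifiers alone, described below, it was 1.41 in Malat1 over Actb and 1.26 in Tfrc over Actb. Below the median gene of all counts, without regard to size, lay 7 of the 8 mRNAs in Malat1 over Actb, 8 in Tfrc over Actb and 4 in Malat1 over Tfrc. Abundance moved with this position. The 868 genes that reached 1000 counts in each library of Malat1 over Actb had a median fold of 1.37, and 41.5% were called higher by share. Among the 919 such genes in Tfrc over Actb the median was 1.17 and 23.8% were called higher. Of the genes with at least 1000 counts, between 5.76% (Eef1a1) and 82.8% (Eef1d) had a lower fold than a member in Malat1 over Actb. In Tfrc over Actb the values ran from 10.2% (Eef1a1) to 48.2% (Eef1b2). The part of abundance in the position of the 8 mRNAs was not tested.

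The makeup of the group differed between libraries more than its summed share. Eef1a1 held 32.8% of the counts of the 8 mRNAs in the Actb library, 23.9% in the Malat1 library and 29.6% in the Tfrc library. Tpt1 held 17.0%, 21.2% and 17.4%, and Eef1d 2.43%, 5.30% and 2.71%. Both thus took a larger part of the group in the Malat1 library, where Eef1a1 took a smaller part. Pabpc1 was instead largest in the Tfrc library, with 18.0% against 15.3% in the Actb library and 15.2% in the Malat1 library. Relative to Eef1a1 the fold of every other member in Malat1 over Actb was above 1, from 1.34 for Eef2 through 1.37 for Pabpc1, 1.46 for Eef1g, 1.51 for Naca, 1.72 for Tpt1 and 1.73 for Eef1b2 to 2.99 for Eef1d. These values do not depend on how the libraries are scaled. They were all bound to lie above 1, since Eef1a1 had the lowest fold of the 8 mRNAs in this comparison.

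**Figure D3:**
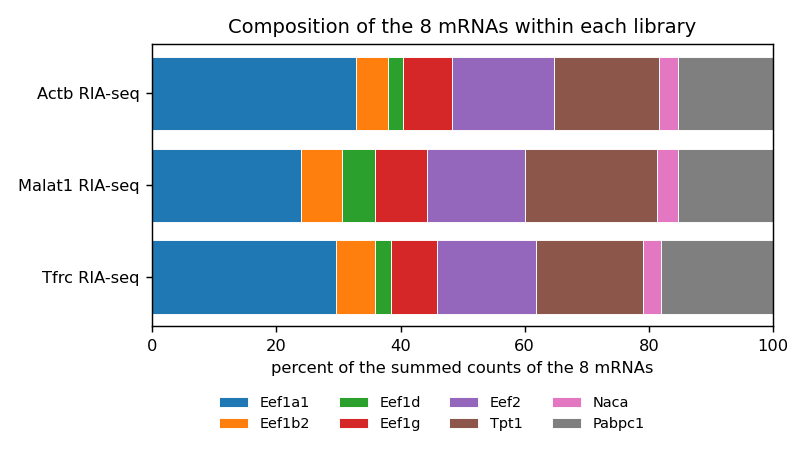
Makeup of the summed counts of the 8 mRNAs in each library, in percent, with 1 library per condition. The Eef1a1 part was 32.8% in the Actb library and 23.9% in the Malat1 library, and the Eef1d part 2.43% and 5.30%.

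The tables hold up to 2 counts for a gene in a library, listed under its Ensembl identifier or under the reference name Genome, and the values above are their sum. How the authors assigned reads to the Genome name is not given in the sources used here. Genome counts were 5.25% of all counts in the Actb library, 19.0% in the Malat1 library and 15.1% in the Tfrc library. For the 8 mRNAs they were far fewer, 366 of 69624 counts in the Actb library (0.526%), and 1.71% and 1.29% in the Malat1 and Tfrc libraries. Among them the share was lowest for Tpt1 in the Actb and Tfrc libraries and for Eef1b2 in the Malat1 library. Tpt1 had 8, 55 and 40 Genome counts in the Actb, Malat1 and Tfrc libraries (0.0678%, 0.379% and 0.244%), and Eef1b2 had 9, 15 and 30 (0.248%, 0.334% and 0.513%). In every library it was highest for Eef1g, with 112, 317 and 359 (2.04%, 5.53% and 5.17%), followed by Naca, with 41, 128 and 130 (1.91%, 5.50% and 4.78%). Eef1a1 had 24, 171 and 118 Genome counts, Eef1d 28, 92 and 63, Eef2 73, 213 and 165, and Pabpc1 71, 181 and 316. As a share of the library total, every member thus had more Genome counts in the Malat1 and the Tfrc library than in the control. For Eef1b2 in Malat1 over Actb the interval of this fold, 0.753 to 3.93, included 1.

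Counted alone over the library total, Genome counts gave a fold in Malat1 over Actb of 7.36 (4.80 to 11.3) for Eef1a1 and 7.10 (3.38 to 14.9) for Tpt1. For Eef1a1 this is the other direction from its summed fold of 0.740. The remaining members ranged from 1.72 (0.753 to 3.93) for Eef1b2 to 3.39 (2.22 to 5.18) for Eef1d. By this measure 94.7% of all genes were called higher, since Genome counts as a whole took a larger part of the Malat1 library. Over the Genome total of each library, which removes that difference, Eef1a1 was at 2.03 (1.32 to 3.11), Tpt1 at 1.96 (0.933 to 4.11) and Eef1b2 at 0.475 (0.208 to 1.09). Tpt1 and Eef1b2, with 8 and 9 Genome counts in the Actb library, were under the minimum of 10, and their intervals included 1. Of the members past that minimum Eef1a1 alone was called, as higher. Of 8297 genes past it 11.1% were called higher and 18.4% lower. Eef1d, Eef1g, Eef2, Naca and Pabpc1 lay below 1, from 0.726 (0.552 to 0.956) for Pabpc1 to 0.936 (0.613 to 1.43) for Eef1d. In Tfrc over Actb 0 were called higher and 2, Eef1d at 0.560 and Eef2 at 0.562, lower, against 10.4% and 18.2% of genes. In Malat1 over Tfrc 3 were called higher, namely Eef1a1, Eef1d and Tpt1, and 2 lower, namely Eef1b2 and Pabpc1, against 12.6% of genes in either direction.

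With Ensembl-ID counts alone over the library total, the folds of the 8 mRNAs hardly changed, since few of their counts were Genome counts. Eef1a1 was at 0.733 and Eef1d at 2.20 in Malat1 over Actb. The median over all genes moved more, to 1.41 in Malat1 over Actb, 1.26 in Tfrc over Actb and 1.11 in Malat1 over Tfrc. On this scale 1, 0 and 1 of the 8 mRNAs were called higher in these comparisons, against 45.1%, 32.6% and 17.4% of genes, and 0 were called lower in each, against 5.03%, 2.96% and 8.24%. Of the 8 mRNAs 7, 8 and 3 lay below the median of Ensembl-ID counts. In the comparisons with the control, those below it lay nearer to it than to the median of summed counts. Eef1d lay further above it in Malat1 over Actb. Calls of size relative to this median were not counted.

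**Figure D4:**
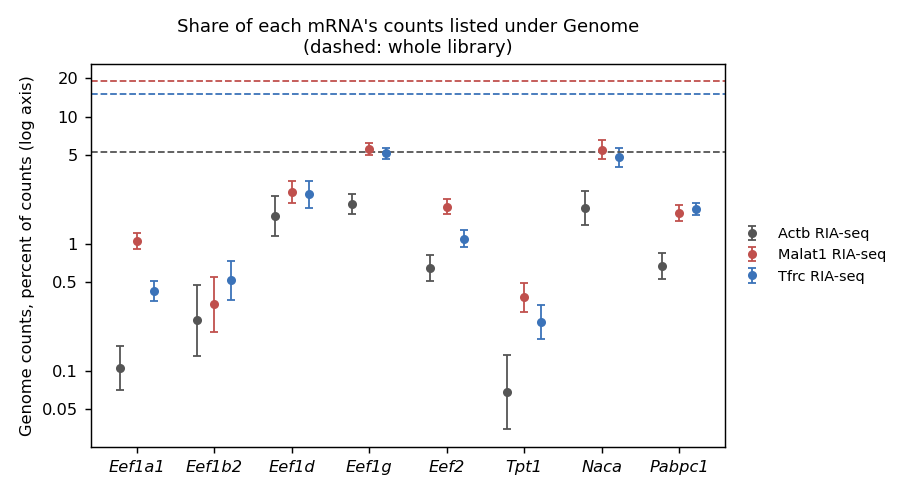
Percent of the counts of each of the 8 mRNAs that were listed under the Genome name, by library, with 95% Wilson intervals and 1 library per condition. For every mRNA the value was lowest in the Actb library, though for Eef1b2 and Eef1d its interval overlapped those of the other libraries. Values ranged from 0.0678% for Tpt1 in the Actb library to 5.53% for Eef1g in the Malat1 library. In each library they were below the share of all counts, 5.25%, 19.0% and 15.1% in the Actb, Malat1 and Tfrc libraries.

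Levels of different genes were compared per length, as Ensembl-ID counts per kb of merged exon per 1000000 counts. On this scale Eef1a1 had the highest level, 880 in the Actb library, 645 in the Malat1 library and 770 in the Tfrc library. Tpt1 followed with 476, 603 and 473, then Eef2 with 350, 343 and 330. Eef1g (199, 207 and 174), Pabpc1 (176, 176 and 199) and Eef1b2 (137, 175 and 158) lay close together, and their order depended on the library. In the Malat1 library the intervals of Pabpc1 (173 to 180) and Eef1b2 (170 to 181) overlapped. Naca (28.8, 31.0 and 25.3) and Eef1d (27.1, 59.5 and 29.2) were the lowest, and their order turned between the Actb and the other libraries, with overlapping intervals in the Actb library. The order of the levels rests on the annotation. With exons of protein-coding transcripts alone, Tpt1 stood above Eef1a1 in the Malat1 library, at 1123 against 794, and Pabpc1 came next, at 355 against 343 for Eef2. The merged exons of Naca span 7.034 kb because a long transcript is annotated, and per kb of its shortest coding transcript (1.118 kb) its level was 181, 195 and 159.

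Some counts could belong to copies of these genes elsewhere in the genome. Sequence of at least 300 nt at 80% identity or more was shared by Eef1a1 with 6 annotated genes, namely 5 pseudogenes and Eef1a2, its paralog. These had 1141, 691 and 1053 counts in the Actb, Malat1 and Tfrc libraries, mostly on the pseudogene Gm13456 (96.8% identity over 1390 nt), with 998, 571 and 909. In the Actb library that is 5.00 counts on copies per 100 on Eef1a1. For Naca the value was 18.1 per 100, mostly on Gm6863 (99.8% identity over 579 nt, with 381, 289 and 374 counts), and for Pabpc1 it was 5.19 per 100, on Gm16580 (97.1% over 1047 nt, with 548, 602 and 983 counts). Tpt1 had 6 such copies, with 0 counts in every library, and Eef1d had 2, with 2, 4 and 4 counts. Eef1b2 had 0 copies of this length. At 100 nt or more and the same identity, however, it shared sequence with 615 genes, 526 of them protein coding. How reads that match several genes were divided is not given in the sources used here. The counts of Eef1b2 and of genes with copies, Tpt1 included, are thus uncertain, and the counts on copies set no limit to the error. With the copies added, the folds of their Ensembl-ID counts in Malat1 over Actb were 0.728 for Eef1a1, 1.03 for Naca (0.975 to 1.09) and 1.01 for Pabpc1, and in Tfrc over Actb 0.864, 0.850 and 1.14. Genes lying inside members took few counts, namely the microRNA gene mmu-mir-703 in Eef1a1 with 44, 53 and 53, and the small nucleolar RNA genes Snora41 in Eef1b2 and Snora31 in Tpt1 with at most 4.

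Other mRNAs of the TOP class were set beside these values. Of 80 ribosomal protein genes with at least 10 counts, the median fold was 1.02 in Malat1 over Actb (range 0.371 to 2.21) and 0.978 in Tfrc over Actb (0.658 to 1.21), beside 1.10 and 0.971 for the 8 mRNAs. In Malat1 over Actb 13 of them were called higher and 9 lower, and in Tfrc over Actb 0 and 3. Of all genes 65.6% were called higher and 2.81% lower in Malat1 over Actb, and 53.3% and 1.82% in Tfrc over Actb. Rpl27, of the large subunit, was highest in the Malat1 library by share like Eef1d, at 1.98 in Malat1 over Actb, 0.934 in Tfrc over Actb and 2.12 in Malat1 over Tfrc, while Rpl4 was at 0.988 and 0.887 and Rpsa at 1.28 and 1.21 in the comparisons with the control. A further 17 TOP mRNAs that encode no ribosomal protein had median folds of 1.05 and 0.990, with 1 higher and 2 lower, and 1 higher and 0 lower. Npm1, a nucleolar chaperone, was at 1.77 and 1.83, Eif4b, an initiation factor, at 1.38 and 1.18, and Gnb2l1, which encodes the ribosomal scaffold RACK1, at 1.04 and 1.14. When set against the median gene of summed counts, 56 and 55 ribosomal protein genes were called lower and 0 higher. Likewise 13 and 11 of the further TOP mRNAs were called lower. Of all genes 20.6% and 15.5% were called lower on that scale, and 19.5% and 18.3% higher. The medians of all 3 TOP groups lay near 1 by share, and 7 of the 8 mRNAs, 73 of 80 ribosomal protein genes and 17 of 17 further TOP mRNAs lay below the median gene in Malat1 over Actb, against 8, 80 and 16 in Tfrc over Actb.

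Genes that work with the members but were listed for their function had higher medians by share than the TOP groups. All genes had medians of 1.82 in Malat1 over Actb and 1.56 in Tfrc over Actb. Of all genes 65.6% and 53.3% were called higher, and 2.81% and 1.82% lower. The part of abundance in the position of these lists was not tested. The list of other cytosolic elongation factor genes had 6 entries past the minimum, of which 1 is the pseudogene Eif5al3-ps, with medians of 1.49 in Malat1 over Actb and 1.58 in Tfrc over Actb, and 3 called higher in each and 0 lower. The 5 without the pseudogene had medians of 1.66 and 1.67. Eif5a, the hypusinated factor, was at 1.08 and 0.987, Eefsec, the factor for selenocysteine, at 3.08 and 2.16, and Hbs1l, which acts on stalled ribosomes, at 1.99 and 1.67. Of 5 mitochondrial elongation factor genes 2 were called higher in each comparison and 0 lower, with medians of 1.34 and 1.36, and Gfm1, a mitochondrial counterpart of eEF2, was at 1.02 and 0.969, Gfm2 at 1.99 and 1.76 and Guf1 at 2.61 and 1.84. Of 7 poly(A)-binding protein and partner genes 3 and 1 were called higher and 0 lower, with medians of 1.47 and 1.24, and Paip2, an inhibitor of Pabpc1, was at 1.92 and 1.24, beside 1.09 and 1.12 for the nuclear Pabpn1 and 1.32 and 1.21 for Larp4. The partner of Naca in its complex, Btf3, was at 0.791 and 0.945, and its relative Btf3l4 at 1.99 and 1.31, of which 1 was called higher in Malat1 over Actb and 0 otherwise. Btf3 also belongs to the further TOP mRNAs above, so the lists are not fully separate. Nacad, a relative of Naca, had 3, 18 and 12 counts.

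Of 8 listed genes for the modification of eEF2, which build its diphthamide or phosphorylate it, 6 were called higher in Malat1 over Actb and 5 in Tfrc over Actb, and 0 lower, with medians of 1.81 and 1.87. Atpbd4 was at 1.80 and 2.15, Dph5 at 1.83 and 1.87 and Dph3 at 0.899 and 0.785. Of 15 regulators of TOP mRNA translation 8 and 8 were called higher and 0 lower, with medians of 1.66 and 1.56. Larp1, which binds the TOP motif, was at 1.42 and 1.25, Rptor, a subunit of mTOR complex 1, at 3.38 and 2.43, and Eif4ebp2, a repressor of the cap-binding factor, at 0.910 and 1.27. Over all genes the medians were 1.82 and 1.56, and 65.6% and 53.3% were called higher.

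**Figure D5:**
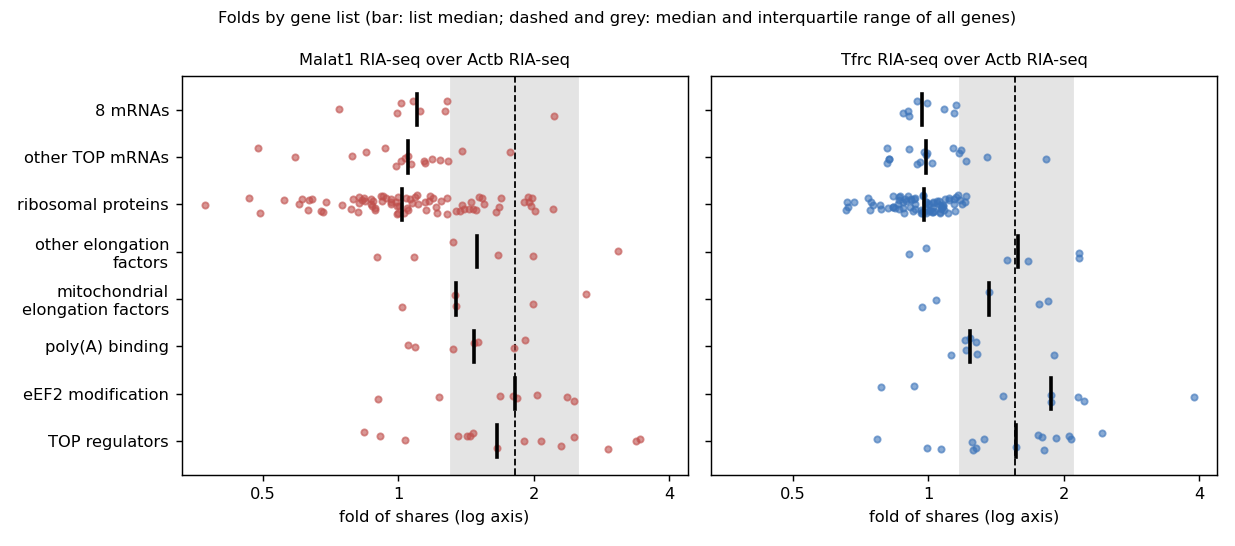
Fold of each gene of each list (points) in Malat1 over Actb and Tfrc over Actb, as ratios of shares on a log axis, with 1 library per condition. Bars are list medians, and the dashed line and grey band are the median (1.82 and 1.56) and interquartile range of all genes. The 8 mRNAs (1.10 and 0.971), the ribosomal protein genes (1.02 and 0.978) and the further TOP mRNAs (1.05 and 0.990) lie near 1, which is below the median gene.

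The genes whose pattern over the 3 libraries was nearest to that of Eef1a1 were sought among 857 other genes with at least 1000 counts in every library. The measure was the Euclidean distance of the log2 folds of Malat1 over Actb and Tfrc over Actb, which describes 3 libraries only. Among the 5 nearest were Rpl38 (distance 0.0313, folds 0.749 and 0.862), Cox6a1 (0.0775), Aldoa (0.144) and Gm9800 (0.163). Rpl38, a ribosomal protein mRNA, had 1887, 1369 and 2274 counts in the Actb, Malat1 and Tfrc libraries, in the same order of shares as Eef1a1.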

How the data were processed

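Read counts of 3 RIA-seq libraries were analysed, 1 per condition, with the condition taken from the oligonucleotides named in the labels. The authors deposited raw counts per gene, whole numbers without normalization. The submitters' processing notes name Bowtie 0.12.7 and the builds mm9 and NCBIM37, without their roles. The counter and its handling of reads with several matches are not given in the sources used here. The depth was 10405209, 10078439 and 14553941 counts, and 3 counts corresponded to between 0.206 and 0.298 counts per 1000000.

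Counts listed under an Ensembl identifier and under Genome were kept apart and then summed by gene symbol. Shares of the library total, Wilson intervals and folds with log-scale counting intervals at the 95% level were computed over every gene. The fold of 1.5, the minimum of 10 counts in both libraries and the pseudocount of 0 were set for all comparisons. The study's chi-square test was computed but is not used here, since it compares the reads of 2 libraries and not the conditions.

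The members and lists were chosen with earlier results of these data known. Of each list the 3 genes with the highest mean share were named, besides all 8 members, the 5 genes nearest to Eef1a1 and genes that share sequence with a member or lie inside it. Of the genes nearest to Eef1a1, 1 is not reported here. Eif5al3-ps was named as a pseudogene, Lum and Sox1 for their counts of 0 and Lars2 for its share, all after their values were seen. Transcripts, starts and exons came from GENCODE on NCBIM37, and shared sequence from blastn. Alternatives were scaling by the median ratio or the 75th percentile, totals without the 10 highest genes or without the targets, each kind of count alone, a pseudocount of 1 and minimums of above 0 and 50 counts. The 10 highest genes left out were those with the highest mean share over the libraries, Actb and Malat1 included. Exons of coding transcripts only, Genome counts over the library total and counts with those of the copies were added after the data were seen. Folds and intervals were tested on simulated counts. These were drawn independently, as the intervals assume, so the test checks the computation and not how well the intervals fit real reads. The tools were BLAST+ 2.17.0 and Python 3.11.15 with the packages pysam 0.24.0, matplotlib 3.10.9, pandas 2.3.3, scipy 1.17.1 and numpy 2.4.6.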

Additional observations from a re-analysis of the deposited data

How the results depend on the processing

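No paired analysis was possible because each condition had 1 library, and for the same reason no library could be left out. The summed ratio crossed 1 under other scalings in Malat1 over Actb and in Malat1 over Tfrc, and stayed below 1 in Tfrc over Actb under every setting run. The ratio of the summed share in Malat1 over Actb was 0.556 with scaling by the median ratio over genes, 0.559 by the 75th percentile, 0.634 without the 10 highest genes, 0.950 without Actb, Malat1 and Tfrc, 1.00 with Ensembl-ID counts only and 0.913 with Genome counts over the Genome total. In Tfrc over Actb it was 0.621, 0.605, 0.692 and 0.906 under the 4 scalings and 0.830 with Genome counts, and in Malat1 over Tfrc 0.908, 0.924 and 0.917 under the first 3 and 1.10 with Genome counts. The median fold of the 8 mRNAs under the same 4 scalings was 0.602, 0.604, 0.686 and 1.03 in Malat1 over Actb and 0.620, 0.604, 0.691 and 0.905 in Tfrc over Actb. In Malat1 over Tfrc it was 1.00, 1.02 and 1.01 under the first 3, and with Genome counts over the Genome total it was 0.861, 0.813 and 1.30 in the 3 comparisons.

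Scaling by the median ratio or the 75th percentile left 0 mRNAs called higher and 5 called lower in Malat1 over Actb, and totals without the 10 highest genes 0 and 3. In Tfrc over Actb these settings called 5, 5 and 3 lower. Of all genes, 20.6%, 20.3% and 14.1% were called lower under these settings in Malat1 over Actb, and 15.5%, 17.2% and 9.47% in Tfrc over Actb. With Genome counts over the Genome total 2 were past the fold higher and 1 lower in Malat1 over Actb. Of these, Tpt1 and Eef1b2 were under the minimum of 10 Genome counts in the Actb library. In Tfrc over Actb 2 were called lower, and in Malat1 over Tfrc 3 higher and 2 lower, on few counts. The shares of genes past that minimum called higher and lower were 11.1% and 18.4%, 10.4% and 18.2%, and 12.6% and 12.6%. Eef1d in Malat1 over Actb was then at 0.936, the other direction from its main value. A pseudocount of 1 and Ensembl-ID counts only left the fold of every member in all 24 cases within its counting interval.

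The number of genes called over all genes moved with the minimum from its main values of 410, 267 and 1118 lower and 9554, 7835 and 2812 higher. At most 1 over 1.5 were 219 genes with a minimum of 50 counts and 1169 with above 0 in Malat1 over Actb, 97 and 937 in Tfrc over Actb, and 379 and 3094 in Malat1 over Tfrc. At least 1.5 were 4891 in Tfrc over Actb with a minimum of 50 counts, and 1744 and 4425 in Malat1 over Tfrc with a minimum of 50 and above 0. Depth was not the limit for the summed counts of the members, while Genome counts of 8 to 30 gave wide intervals.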
